A study of Arabidopsis thaliana with 45 samples.

Results

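The 21 genes described here are nuclear genes of Arabidopsis thaliana that the deposited annotation defines as part of photosystem I (PSI) or photosystem II (PSII). They were taken from the 28545 genes with a count as the loci on chromosomes 1 to 5 whose definition names either photosystem. The 4 rows that name a chlorophyll a-b binding protein or carry an LHC symbol were left out of the 25 nuclear rows found. The rule used the annotation and no measured value. By role, the 21 genes held 11 subunits of PSI (PSAD1, PSAD2, PSAE1, PSAE2, PSAF, PSAG, PSAH1, PSAH2, PSAK, PSAL and PSAN) and 1 PSI assembly factor (PSA2). On the PSII side they held 4 genes defined as subunits (PSBR, PSBTN, PSBS and AT4G37230, a member of the PsbO family), 3 factors of assembly or repair (PSB27, PSB28 and HCF136) and 2 members of the PsbP family (AT3G63540 and AT5G27390). The main genes for the oxygen-evolving proteins PsbO, PsbP and PsbQ are defined by other words and fell outside the rule.

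Photosystem II takes electrons from water in the thylakoid membrane of the chloroplast, and photosystem I passes them on to ferredoxin after they have crossed the cytochrome b6f complex. The core proteins that carry the pigments are encoded in the plastid genome, whereas most of the small peripheral subunits are encoded in the nucleus, made in the cytosol and imported. In seedlings these nuclear genes are known to be expressed in green tissue and to be low in roots, whose plastids are mostly not green.

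The study measured RNA from wild-type Col-0 seedlings placed in Kennedy Fixation Tubes (KFTs), sealed tubes in which plants can be flooded with a fixative during flight. Seedlings were 7 days old, had a 24 h light cycle and were stored for 8 h in the dark, and all groups were wild type. The labels place leaves and roots at Q1, after 4 h in a KFT (Q1L, Q1R), and a further 14 min (Q2L, Q2R), 18 min (Q3L, Q3R) or 28 min (Q4L, Q4R) later. A further KFT was turned on a clinostat at 1 rpm for 4 min after the first 14 min (CL, CR), which matches Q3 in time. Roots were also taken at Q1 from a Petri plate (Q1P) and from 4 KFTs, labelled Q1A to Q1D. Each of the 15 groups had 3 libraries of 2 pooled plants, giving 15 leaf and 30 root libraries. The 3 libraries of a group came from the same tube or plate, so p-values measure the spread among plants of that tube, and tube and condition cannot be told apart.

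Library totals were 29203427 to 117091661 counts, with a median of 50467925. Root markers summed to 469 to 1319 CPM (a gene's counts over the library's total, times 1000000) in leaf libraries and 5423 to 10702 CPM in root libraries. Most of both sums was PYK10, with 420 to 1257 CPM in leaves and 4278 to 8846 CPM in roots. ESB1 did not separate the tissues, with a median of 0.293 CPM in leaves and 0.286 CPM in roots. Leaf markers, 15 genes of carbon fixation and photorespiration, summed to 37639 to 62219 CPM in leaves and 202 to 995 CPM in roots. In roots the Rubisco small subunit gene RBCS1B was at 0 in 4 of 30 libraries, the carbonic anhydrase CA1 in 3, and RBCS2B and the glycolate oxidase GOX1 in 1 each. No other leaf marker was at 0 in any root library. The root sum held 58.2 to 125 CPM of GLDP1, 37.0 to 338 CPM of RBCS1A and 25.0 to 109 CPM of RCA. One root library stood apart: Q1A replicate 1, with 995 CPM of leaf markers, against 202 to 542 CPM in the other root libraries. In Q1B replicate 2, seed storage genes summed to 10629 CPM. The leaf library titled Q4L replicate 1 has a source name that gives Q3, so the results that it moved most are also given without it. In these bulk samples, fewer green cells and less RNA per cell cannot be told apart.

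Leaf levels spanned a wide range within the same complex. PSBR, at chr1:29735952-29737009 in TAIR10.1 and encoding a small lumenal PSII protein near the oxygen-evolving site, had a lowest, median and highest level of 2952, 3479.8 and 6591 CPM over the 12 leaf libraries of Q1L to Q4L. Of the PSI subunits, PSAK had 1589, 2014 and 2722 CPM, and PSAF, whose protein docks plastocyanin in plants, had 1438, 1786 and 2357 CPM. The highest PSBR library was Q4L replicate 1, and the next highest of these 12 had 4171 CPM. PSAL, part of the side of PSI where light-harvesting complex II docks, had 1298, 1468 and 1961 CPM, and PSAN, a lumenal subunit, had 1001, 1338 and 1882 CPM. At the low end, AT5G27390 had 36.1, 66.9 and 77.9 CPM, PSAG 73.6, 111 and 263 CPM, and PSA2 98.9, 129 and 141 CPM. PSAG, which helps to hold the light-harvesting antenna of PSI, was thus the lowest PSI subunit, and its highest library was again Q4L replicate 1, with 157 CPM as the highest of the other 11.

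Levels of different genes were compared per kilobase of merged exons. On this scale of CPM per kb, PSBR led in leaves with 4723 ± 1236 (SD, n = 12; 4388 ± 448 without Q4L replicate 1, n = 11), followed by PSAK with 2647 ± 469, PSAF with 1548 ± 284, PSAL with 1333 ± 184 and PSAN with 1320.4 ± 251. PSBR and PSAK did not overlap in range, with 3765 as the lowest PSBR library and 3539.5 as the highest PSAK library. PSAL and PSAN were closer than their spread, as were PSAD1 (1008 ± 104), PSBTN (962 ± 128) and PSAE2 (946 ± 121). Assembly and repair factors lay lower, with PSB27 at 236 ± 36.9, PSB28 at 206 ± 42.2, HCF136 at 184 ± 22.6 and PSA2 at 119.5 ± 14.8 CPM per kb. AT4G37230 had 0.627 ± 0.500 CPM per kb, and its partial gene model shares 205 of 432 exon bases with AT4G37225 on the opposite strand. Together the 21 genes took 1.43% to 2.15% of the counts of the 12 leaf libraries, with a median of 1.64%, and 0.0163% to 0.0494% of those of the 30 root libraries. PSBR alone made 21.5 ± 3.12% (SD, n = 12) of the leaf sum of the 21 genes. Without Q4L replicate 1 the highest leaf share of counts was 1.91%, and PSBR made 20.7 ± 1.27% (SD, n = 11) of the sum.

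**Figure D1:**
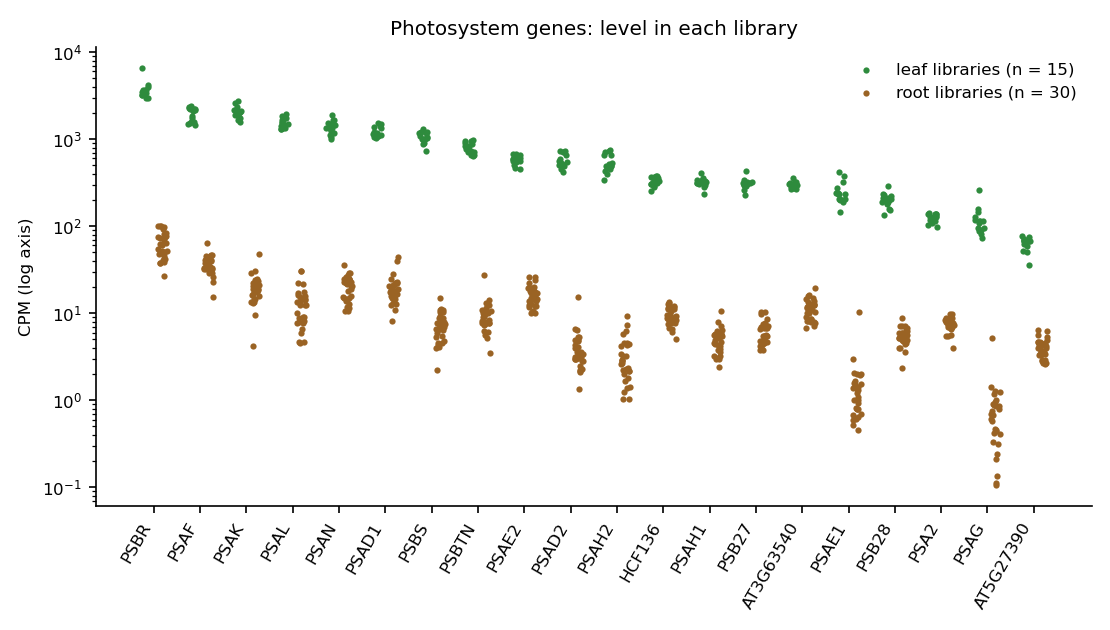
Level of 20 photosystem genes in CPM on a log axis, 1 point per library, with 15 leaf libraries at the left and 30 root libraries at the right of each gene, ordered by leaf level. For each gene shown, every leaf point lies above every root point; AT4G37230, which was near 0, is left out.

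The promoters of 4 PSI genes are shown to give the sequence beside the levels: PSAE1 and PSAE2 because they encode the same subunit at different levels in the tissues, and PSAF and PSAK because they were the PSI genes with the highest leaf CPM. Each is the 120 bases before the annotated start in TAIR10.1, read from the RefSeq genome 5′ to 3′ on the strand of the gene. Positions are chr4:14204062-14204181 (minus strand) for PSAE1, chr2:8736614-8736733 (plus) for PSAE2, chr1:11216142-11216261 (minus) for PSAF and chr1:10722063-10722182 (plus) for PSAK. Capitals mark a G-box (CACGTG, in PSAE2), an I-box on either strand (GATAAG in PSAF, its reverse complement CTTATC in PSAK) and the longest run that the PSAE1 and PSAE2 windows share (CACATTATCC).
PSAE1: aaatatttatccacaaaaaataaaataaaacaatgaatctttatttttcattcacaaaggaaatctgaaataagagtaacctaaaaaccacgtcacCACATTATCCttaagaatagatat
PSAE2: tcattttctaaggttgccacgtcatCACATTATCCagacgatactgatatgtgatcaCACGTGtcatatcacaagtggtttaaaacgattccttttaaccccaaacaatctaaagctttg
PSAF: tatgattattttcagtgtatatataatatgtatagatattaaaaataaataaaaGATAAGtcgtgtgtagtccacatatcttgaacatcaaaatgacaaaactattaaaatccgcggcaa
PSAK: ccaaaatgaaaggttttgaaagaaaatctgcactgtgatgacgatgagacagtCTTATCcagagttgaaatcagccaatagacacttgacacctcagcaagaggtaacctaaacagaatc

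The run shared by PSAE1 and PSAE2 is 10 bases long. It lies 24 to 15 bases before the start of PSAE1 and 95 to 86 bases before the start of PSAE2, inside a stretch of 20 aligned bases of which 18 are identical. The run was chosen after both windows had been compared, and on either strand it occurs in 10 of 27437 protein-coding promoters of 250 bases (0.0364%). The I-box lies 66 to 61 bases before the start of PSAF and 67 to 62 bases before that of PSAK, and the G-box 63 to 58 bases before that of PSAE2.

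Over windows of 250 bases, searched on both strands, 20 of the 21 genes had a full window. The G-box (CACGTG) was in 4 of the 20 (20%; PSAE2, PSAH2, PSBTN and PSB28), against 6.49% of all 27437 promoters. The I-box (GATAAG) was in 4 of the 20 (PSAD1, PSAF, PSAH2 and PSAK), against 12.3% of all promoters. Shares of CCAAT (40% and 46.0%), TATAAA (35.0% and 47.4%) and CATGCA (15.0% and 8.43%) stood beside none for the evening element AAATATCT in these genes and 4.79% in all promoters. These are letter matches and not measured binding, and some of the longer windows reach into exons of a neighbouring gene.

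Leaves were set against roots over the 12 libraries each of Q1 to Q4, with time point as a covariate, to ask how far each photosystem gene differs between green and root tissue. All 20 genes tested were higher in leaves (edgeR quasi-likelihood test, Benjamini-Hochberg adjusted p of at most 0.05), against 34.4% of all 20915 genes tested, with 37.9% lower. All 20 also passed a log2 fold change of 1, against 21% of all genes. AT4G37230 was too low to be tested. The median log2 fold change was 6.28 for the 20 genes and -0.06 for all genes tested, with a range of 4.38 to 8.27 for the 20. In each of the 20 genes the 15 leaf libraries all lay above the 30 root libraries. Among all genes with a count, 10% had the 12 leaf libraries above the 12 root libraries. The lowest leaf library was 5.57 times the highest root library for AT5G27390 and 48.8 times for PSBS.

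PSAG had the largest difference, with a log2 fold change of 8.27 (SE 0.41, edgeR adjusted p = 6.84e-15). Its 12 leaf libraries had 73.6, 111 and 263 CPM (lowest, median and highest) and its 12 root libraries 0.107, 0.459 and 0.885 CPM, so the root value rests on few counts. PSAG shares 479 of 780 exon bases with AT1G55673 on the opposite strand, and whether the counting used strand is not given in the sources used here. PSAE1, a stromal subunit at the ferredoxin side of PSI, followed with a log2 fold change of 7.91 (SE 0.32), having 145, 220.0 and 417 CPM in leaves and 0.594, 1.11 and 2.95 CPM in roots. PSAH2, a subunit at the docking side for light-harvesting complex II, had 342, 494 and 757 CPM in leaves and 1.04, 3.33 and 9.17 CPM in roots, a log2 fold change of 7.47 (SE 0.27). PSBS, the sensor of lumen acidity that switches on heat dissipation, and PSAK each had a log2 fold change of 7.41. For PSBS the leaf libraries had 739, 1039.6 and 1298 CPM and the root libraries 2.23, 8.06 and 11 CPM.

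The smallest differences were those of PSA2 and AT5G27390. PSA2, a thylakoid lumen protein needed to build PSI, had a log2 fold change of 4.38 (SE 0.13), with 98.9, 129 and 141 CPM in leaves and 3.96, 7.99 and 9.27 CPM in roots. AT5G27390 had a log2 fold change of 4.39 (SE 0.17). PSAE2 was next at 5.26 (SE 0.15), with 449, 579.9 and 671 CPM in leaves and 11.9, 18.1 and 26.1 CPM in roots, followed by AT3G63540 (5.33) and HCF136 (5.52). HCF136 is a lumenal factor needed for assembly of the PSII reaction centre, and PSB28 (5.61) and PSB27 (6.03) act in PSII assembly and repair. PSAE2 was the PSI subunit with the smallest difference, whereas its paralog PSAE1 was second among the 20 genes. The median log2 fold change was 7.00 for the 11 PSI subunits and 7.01 for the 3 PSII subunits tested, and 5.61 for the 3 PSII assembly and repair factors.

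The order of levels per kb also differed between the tissues. In roots PSBR was again first, with 97.7 ± 25.9 CPM per kb (SD, n = 12). PSAE2 (31.6 ± 7.46), PSAF (29.4 ± 7.79), PSAK (20.3 ± 7.11) and PSAN (19.99 ± 6.53) came next in these roots and overlapped each other, whereas PSAE2 was eighth in leaves. The place of PSAE2 among them varied with the root set, since over all 30 root libraries it lay below PSAF, with 26.8 ± 7.41 against 30.1 ± 7.30 CPM per kb (SD, n = 30), and in Q1A to Q1D, CR and Q1P its mean was below those of PSAF and PSAK. PSAG was the lowest of the 20 genes in roots, at 0.639 ± 0.408 CPM per kb. All 20 genes other than AT4G37230 had counts in every root library.

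Genes that act with these proteins were listed from textbook roles rather than from how they moved. Of 12 other nuclear subunits of the photosystems (PSAO, PSAP, PSBO1, PSBO2, PSBP1, PSBP2, PSBQ1, PSBQ2, PSBW, PSBX, PSBY and AT1G51400), 11 were tested and all were higher in leaves, with a median log2 fold change of 6.12. Among them PSAO had 7.67 (SE 0.26), PSBO1 5.80 (SE 0.17) and PSBP2 2.52 (SE 0.75). All 12 further assembly factors were higher too, with a median of 3.5, and PPL1 (7.93) and OHP1 (6.15) stood above the others of that list. The 19 antenna genes tested of 20 were all higher with a median of 6.97, and all 14 genes of electron transport and the chloroplast ATP synthase with a median of 5.19. Of 12 regulators of greening, 9 were higher and 1 was lower. The 15 leaf markers had a median of 8.03.

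PSI subunits D, E and H are each encoded by a pair of paralogs in the nucleus, and the balance within each pair was compared between leaves and roots. Shares are of CPM and not per kb, so they compare the tissues and do not rank the paralogs of a pair. PSAD2 made 27.9% to 34.2% of the pair's CPM in the 12 leaf libraries (median 32.4%) and 8.21% to 24.3% in the 12 root libraries (median 15.6%). Every leaf library lay above every root library. The log2 ratio of PSAD2 to PSAD1 was higher by 1.25 (SE 0.16) in leaves (two-sided permutation test with 100000 draws, p = 2e-05, the smallest they can give, and 2e-05 adjusted over the 3 pairs). PSAD proteins carry the docking site for ferredoxin on the stromal side of PSI. The test was added after the values had been seen, and its libraries come 3 to a tube. It shuffled libraries freely across time points and tubes, so its p does not measure the spread between tubes.

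PSAE1 made 23.4% to 38.4% of its pair in leaves (median 28.4%) and 2.99% to 14.2% in roots (median 5.93%), again with no overlap. Its log2 ratio to PSAE2 differed by 2.71 (SE 0.24, permutation p = 2e-05). Without Q4L replicate 1 the highest leaf share was 36.6% and the difference 2.66 (SE 0.24, permutation p = 2e-05). At the separate time points the difference was 2.33 at Q1, 3.25 at Q2, 3.16 at Q3 and 2.11 at Q4, and it was 2.68 between CL and CR. PSAE1 shares 263 of 798 exon bases with AT4G28755 on the opposite strand, and PSAE2 63 of 607 with AT2G20270. The share of PSAE1 in the 12 root libraries of Q1A to Q1D was 2.51% to 35.2% with a median of 7.76%, and the 35.2% was Q1A replicate 1, the library with the highest leaf markers.

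PSAH2 made 55.3% to 69.2% of its pair in leaves (median 61.1%) and 15.2% to 58.6% in roots (median 46.8%), and 9 of 12 leaf libraries lay above all 12 root libraries. The 58.6% was Q1R replicate 1, and the next highest root library had 52.1%. The share of PSAH2 was 12.5% to 41.1% in Q1A to Q1D (median 31.4%) and 26.9% to 39.2% in Q1P. PSAH1 has the longer exons, and per kb PSAH2 had 719 ± 157 and PSAH1 244 ± 31.5 CPM in the 12 leaf libraries (SD). In the 12 root libraries of Q1R to Q4R they had 5.49 ± 3.08 and 3.79 ± 1.06 CPM per kb, with overlap. In Q1A to Q1D they had 3.49 ± 2.40 and 3.96 ± 1.61 CPM per kb, also with overlap. The log2 ratio to PSAH1 differed by 1.14 (SE 0.26, permutation p = 2e-05). At Q1 the difference was 0.43 with only 1 of 3 leaf libraries above the 3 root libraries, against 1.17 at Q2, 1.83 at Q3, 1.13 at Q4 and 1.05 between CL and CR. PSAH1 shares 693 of 1300 exon bases with AT3G16130 on the opposite strand, and PSAH2 174 of 702 with AT1G52240. For PSAD the differences were 1.81 at Q1, 1.09 at Q2, 1.34 at Q3 and 0.78 at Q4, and 1.4 between CL and CR. Reads that map to both paralogs were not counted, since only uniquely mapped reads were kept.

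**Figure D2:**
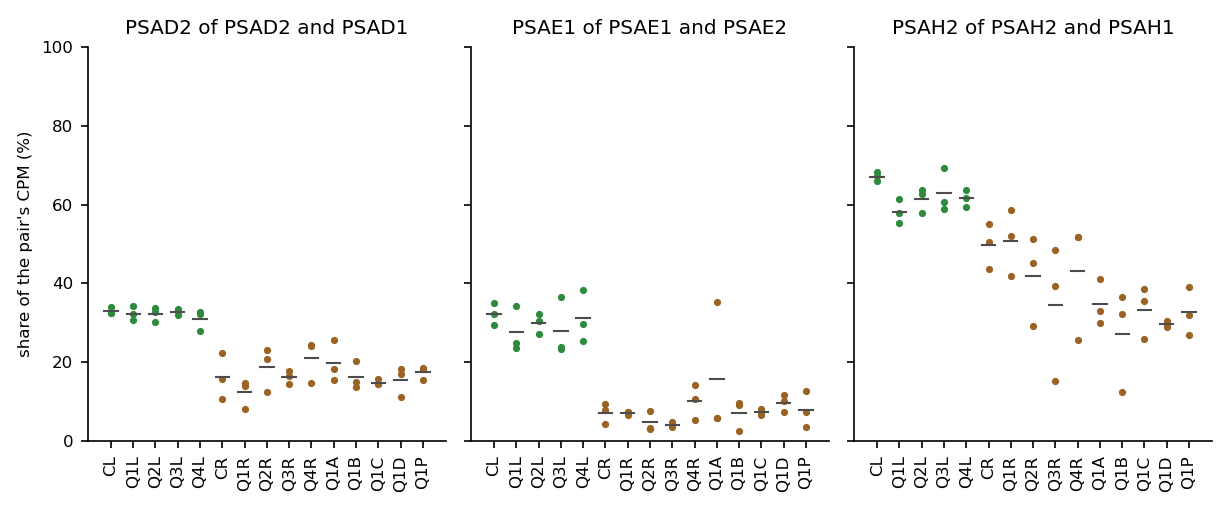
Share (%) of PSAD2, PSAE1 and PSAH2 in the summed CPM of each paralog pair, 1 point per library with a line at the group mean, leaf groups in green and root groups in brown. PSAD2 and PSAE1 had no overlap between the 12 leaf and the 12 root libraries of Q1 to Q4, and PSAH2 did.

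The time course in roots asks whether time in the KFT moved these genes. At Q2, no photosystem gene passed the adjusted threshold (edgeR), against 0.321% of genes higher and 0.0425% lower at Q2 among 21189 tested. Of the 20 genes tested, 3 had an unadjusted p under 0.05, against 6.31% of all genes higher and 4.85% lower. PSBR had 98.9, 101 and 100.1 CPM in Q2R, against 77.6, 62.3 and 80.6 CPM in Q1R, without overlap (log2 fold change 0.49, SE 0.11, adjusted p = 0.114). DESeq2 called PSBR higher (adjusted p = 0.00419), where it called 1.65% of all genes tested higher. PSAN had 28.7, 27.6 and 28.8 CPM in Q2R, against 18.0, 24.5 and 23.1 CPM in Q1R (0.42, adjusted p = 0.294). PSAD1 had 16.5, 22.4 and 20.9 CPM in Q2R, against 39.5, 24.9 and 28.2 CPM in Q1R, which gave a log2 fold change of -0.59 with an adjusted p = 0.254. The median over the 20 genes was -0.02, with 10 positive and 10 negative.

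At Q3 the values of most photosystem genes lay below those of Q1, although edgeR again called none, against 2.75% of genes higher and 1.79% lower. The log2 fold change was negative in 16 of 20 genes and in all 11 PSI subunits. The median was -0.50 over the 20 genes, -0.69 over the PSI subunits and -0.002 over all genes tested. An unadjusted p under 0.05 was reached by 7 genes, all with a negative sign, against 11.1% of all genes higher and 10.2% lower. The positive ones were PSB28, HCF136 and both PsbP family genes, with log2 fold changes of 0.09 to 0.41 and no call.

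PSAN came closest to the threshold, with 11.8, 15.5 and 10.7 CPM in Q3R, against 18.0, 24.5 and 23.1 CPM in Q1R, and no overlap (log2 fold change -0.72, SE 0.20, edgeR adjusted p = 0.0561). PSAD1 had 14.4, 22.1 and 8.07 CPM in Q3R, against 39.5, 24.9 and 28.2 CPM in Q1R (-0.99, SE 0.30, adjusted p = 0.0842). Its groups did not overlap either. PSAF had 32.5, 33.5 and 22.7 CPM in Q3R, against 45.7, 40.2 and 46.2 CPM in Q1R (-0.51, adjusted p = 0.0885), and PSAH2 had 2.86, 3.42 and 1.04 CPM in Q3R, against 9.17, 6.17 and 4.18 CPM in Q1R (-1.34, SE 0.45, adjusted p = 0.112). PSAL had 12.4, 16.2 and 5.99 CPM in Q3R, against 30.9, 15.7 and 22.0 CPM in Q1R (-0.92, adjusted p = 0.129), with overlap. Q3R replicate 3 was the lowest of its group for all 5 of these genes.

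The call depended on the test. DESeq2 called 5 of these genes lower (PSAD1, PSAF, PSAH2, PSAL and PSAN, adjusted p = 0.00975 to 0.0375), where it called 5.54% of all genes lower. Without the filter on low counts edgeR called PSAD1, PSAF, PSAL and PSAN (2.56% of all genes lower), and without Q3R replicate 2 it called PSAD1 (-1.41) and PSAN (-0.91) against 0.955% of all genes lower. Genes of the same process that edgeR called lower at Q3 were LHCB3 (-1.19), LHCA1 (-1.26) and LHCA3 (-0.66) of 17 antenna genes tested, and PSBO1 (-0.69, adjusted p = 0.0463), the main oxygen-evolving protein, of 11 other subunits tested. All 17 antenna genes and all 11 other subunits had a negative sign, with medians of -0.68 and -0.62. The 12 other assembly factors were mixed, with 5 positive, 7 negative and a median of -0.16. Of the 11 plastid-encoded photosystem genes tested, 9 were positive with a median of 0.84, and PSBM, a small subunit of PSII, was called higher (3.05, adjusted p = 0.0106). The 15 leaf markers summed to 230 to 330 CPM in Q3R and to 333 to 442 CPM in Q1R, and 1 of the 14 tested, the plastid aldolase gene FBA1, was called lower (-1.58, adjusted p = 0.0304). Their part in the lower photosystem values was not tested. Seed storage genes summed to 18.9 to 28.6 CPM in Q3R and 0.137 to 0.757 CPM in Q1R.

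At Q4 edgeR called none of the 20 genes, against 0.516% of genes higher and 0.397% lower, and 6 had an unadjusted p under 0.05, all negative, against 5.11% of all genes higher and 5.51% lower. PSAD1 had 16.6, 17.2 and 12.7 CPM in Q4R, against 39.5, 24.9 and 28.2 CPM in Q1R (log2 fold change -0.94, SE 0.21, adjusted p = 0.0530). DESeq2 called PSAD1 alone among these genes (adjusted p = 0.00556, with 1.21% of all genes lower), as did edgeR without the filter (0.0102, with 0.875%) and edgeR with the replicate number as a block (0.0424, with 0.445%). PSBTN, a small nuclear-encoded PSII subunit, had 5.20, 3.48 and 6.09 CPM in Q4R, against 13.2, 8.02 and 9.66 CPM in Q1R (-0.995, adjusted p = 0.192), and PSAH2 had 2.17, 2.59 and 3.23 CPM in Q4R, against 9.17, 6.17 and 4.18 CPM in Q1R (-1.23, adjusted p = 0.207). Neither gene's groups overlapped, nor did those of PSAD1. PSAG had 0.107, 0.113 and 0.134 CPM in Q4R, against 0.872, 0.451 and 0.850 CPM in Q1R, a log2 fold change of -2.54 with an SE of 1.51 (adjusted p = 0.610). The median over the 20 genes was -0.28, with 16 negative.

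The summed level of the 21 genes in roots was 271 to 358 CPM in Q1R, 310 to 351 CPM in Q2R, 172 to 266 CPM in Q3R and 193 to 288 CPM in Q4R. Q3R thus lay wholly below Q1R and Q2R, and Q4R overlapped Q1R. All 3 later groups were set against the same 3 libraries of Q1R, so their fold changes are not independent. Roots of Q1A to Q1D, which carry the same labelled time as Q1R, had 163 to 273 CPM apart from 494 CPM in Q1A replicate 1. Most of these Q1 libraries thus lay below Q1R and in the range of Q3R and Q4R, a difference that was not tested. Over Q1R to Q4R, PSAD1 was highest in Q1R (24.9 to 39.5 CPM), with each of its 9 later libraries below the 3 of Q1R. At the same labelled time, Q1A to Q1D had 10.8 to 22.8 CPM of PSAD1, apart from 44.3 CPM in Q1A replicate 1. Their PSAH2 was 1.02 to 3.23 CPM, apart from 7.4 CPM in that library, against 4.18 to 9.17 CPM in Q1R. All Q1P libraries lay below Q1R for both genes. Low values of these genes were found in some Q1 groups as well as later, and the differences among Q1 groups were not tested. Whether Q1A to Q1D and Q1P were prepared together with Q1R is not given in the sources used here. Time, tube and preparation cannot be told apart in these values.

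**Figure D3:**
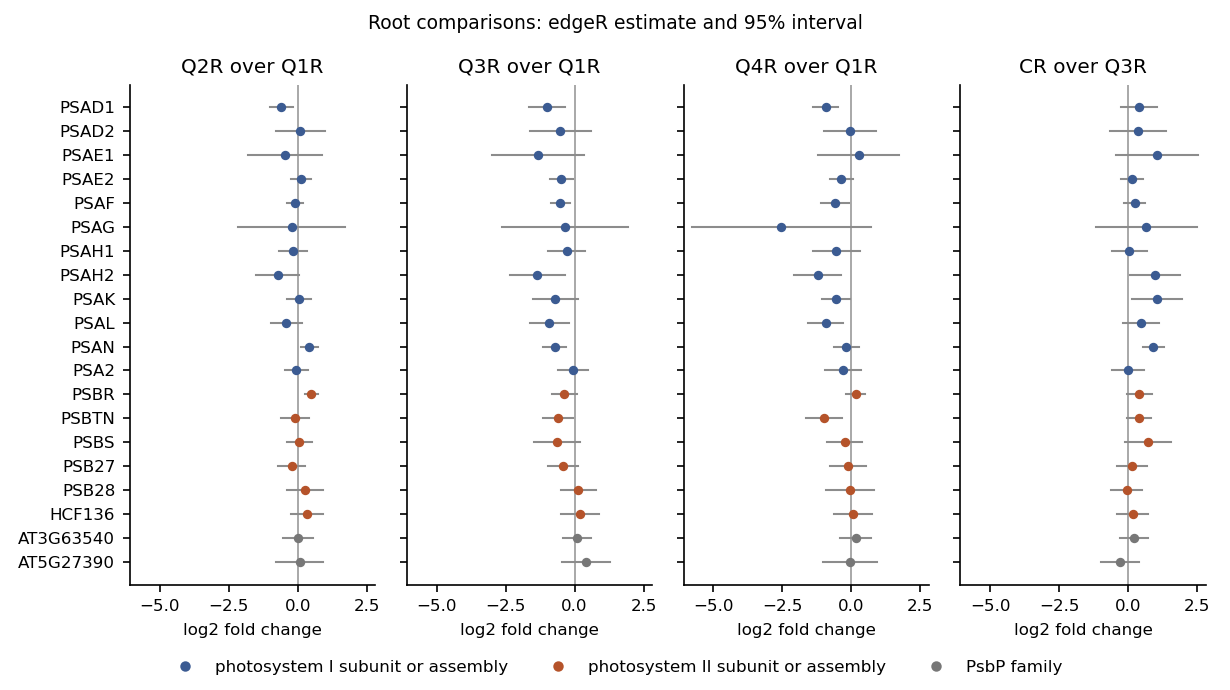
Log2 fold change (edgeR) of 20 photosystem genes in roots, with points at the estimate and bars for the 95% interval, for Q2R, Q3R and Q4R over Q1R and CR over Q3R. In Q3R over Q1R all 11 PSI subunits lie left of 0, and in CR over Q3R all 11 lie right of 0, although none passed the adjusted threshold and 8 of the 11 were negative when CR was set against Q1R.

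Clinorotated roots were compared with Q3R, which spent the same time in a KFT without rotation. EdgeR called none of the 21 genes, against 0.00475% of genes higher and 0% lower, since it called 1 gene among 21049. Of the 21 genes 17 had a positive sign, among them all 11 PSI subunits, with a median of 0.35, against 0.01 over all genes tested. Of the PSI subunits 9 were positive without Q3R replicate 1, 10 without Q3R replicate 3 or CR replicate 2, and 11 without any 1 of the other libraries. PSAN had 22.0, 25.8 and 24.6 CPM in CR, against 11.8, 15.5 and 10.7 CPM in Q3R, without overlap (log2 fold change 0.91, SE 0.18, adjusted p = 0.199). PSAK had 15.8, 30.9 and 24.6 CPM in CR, against 13.4, 16.6 and 4.16 CPM in Q3R (1.04, adjusted p = 0.307), with overlap, and PSAH2 had 4.47, 4.35 and 5.78 CPM in CR, against 2.86, 3.42 and 1.04 CPM in Q3R (0.97, adjusted p = 0.334). These 3 were the genes with an unadjusted p under 0.05, against 7.46% of all genes higher and 6.43% lower. DESeq2 called PSAN higher (adjusted p = 0.00290, with 1.36% of all genes higher), as did edgeR without CR replicate 1 (0.0310, with 2.34%).

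CR and Q1R were close for PSAN, with 22.0, 25.8 and 24.6 CPM in CR and 18.0, 24.5 and 23.1 CPM in Q1R. The signs depended on the control. With Q1R in place of Q3R, 8 of the 11 PSI subunits had a negative log2 fold change and 3 a positive one, with a median of -0.29 and none called. Among those that turned were PSAD1 (-0.60, adjusted p = 0.108), PSAL (-0.46, adjusted p = 0.303) and PSAH2 (-0.38, adjusted p = 0.574), while PSAK (0.34), PSAG (0.29) and PSAN (0.18) stayed positive. With Q1R and Q3R together as the control 6 of the 11 were positive, and 5 with Q2R added. The summed level of the 21 genes was 282 to 293 CPM in CR, 172 to 266 CPM in Q3R and 271 to 358 CPM in Q1R. The leaf markers summed to 262 to 332 CPM in CR and 230 to 330 CPM in Q3R, with overlap. Gene by gene, 14 of the 15 leaf markers had a positive sign against Q3R, with a median log2 fold change of 0.52 and 4 at an unadjusted p under 0.05, and 17 of 18 antenna genes, with a median of 0.58 and 9 at that p. No gene of either list was called, and the part of the leaf markers in these values was not tested. Each condition was held in its own tube, so clinorotation and tube cannot be told apart.

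In clinorotated leaves no photosystem gene was called against Q3L (edgeR), where no gene at all was called (0% higher and 0% lower), nor did DESeq2 call a photosystem gene. PSBTN alone had an unadjusted p under 0.05 (2.53% of all genes higher and 4.62% lower), with 955, 830.2 and 987 CPM in CL, against 824, 662 and 729.6 CPM in Q3L (log2 fold change 0.28, adjusted p = 0.678). The median over the 21 genes was 0.02. In the test of whether clinorotation acted differently in leaves and roots, none of the 21 genes was called by edgeR, against 0.00445% of genes with a higher and 0.0267% with a lower response in leaves. PSAN was the only one with an unadjusted p under 0.05 (3.49% of all genes higher and 8.8% lower), with a leaf response minus root response of -0.90 on the log2 scale (SE 0.23, adjusted p = 0.204), and DESeq2 called it (adjusted p = 0.0232, with 1.64% of all genes lower). All 11 PSI subunits had a negative sign in this test, with a median of -0.56, against -0.05 over all genes. Without Q3R replicate 3 the number was 9 (median -0.38), and it was 10 or 11 without any 1 of the other libraries. The test used the same CR and Q3R libraries as the root comparison, so these signs are not independent of it. In CL over Q3L 5 PSI subunits were positive and 6 negative, with a median of -0.001. The test was not run with Q1 as the control.

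The photosystem genes in leaves were compared over the same time course. None was called at Q2 (edgeR, 0% of genes called higher and 0% lower), at Q3 (0.00979% higher and 0% lower) or at Q4 (0% each way), nor by DESeq2. The number with an unadjusted p under 0.05 was 0 at Q2, 2 at Q3 (PSAF and PSAE2) and 1 at Q4 (PSAG). The same threshold was passed by 2.01% of all genes higher and 4.09% lower at Q2, 1.99% and 1.38% at Q3, and 2.07% and 1.5% at Q4. PSAF had 2357, 2208 and 2199 CPM in Q3L, against 1576, 2155 and 1509.9 CPM in Q1L (log2 fold change 0.46, SE 0.19, adjusted p = 0.999). PSAE2 had 671, 602 and 649.9 CPM in Q3L, against 449, 609 and 468 CPM in Q1L (0.42, adjusted p = 0.999). PSAG had 263, 114 and 117 CPM in Q4L, against 114, 87.6 and 73.6 CPM in Q1L, and its log2 fold change of 0.99 (adjusted p = 0.955) was 0.35 without Q4L replicate 1.

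PSI subunits summed to 8654 to 11845 CPM in Q1L, 9103 to 10203 CPM in Q2L, 10677 to 11913 CPM in Q3L, 9008 to 11682 CPM in Q4L and 11407 to 12173 CPM in CL. Antenna genes summed to 64163 to 67594 CPM in Q3L and 32652 to 44731 CPM in Q1L, and edgeR called LHCB1.1 (log2 fold change 1.60) and LHCB2.1 (1.66, adjusted p = 0.0463) higher at Q3. The ratio of antenna to photosystem sums was 3.45 to 3.78 in Q3L and 2.18 to 2.38 in Q1L. So the antenna sums of Q3L and Q1L did not overlap, while the PSI sums did. Q2L lay wholly below Q3L and CL in the PSI sums. In Q4L the highest library of each sum was replicate 1, without which the PSI sums were 9008 and 9837 CPM.

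**Figure D4:**
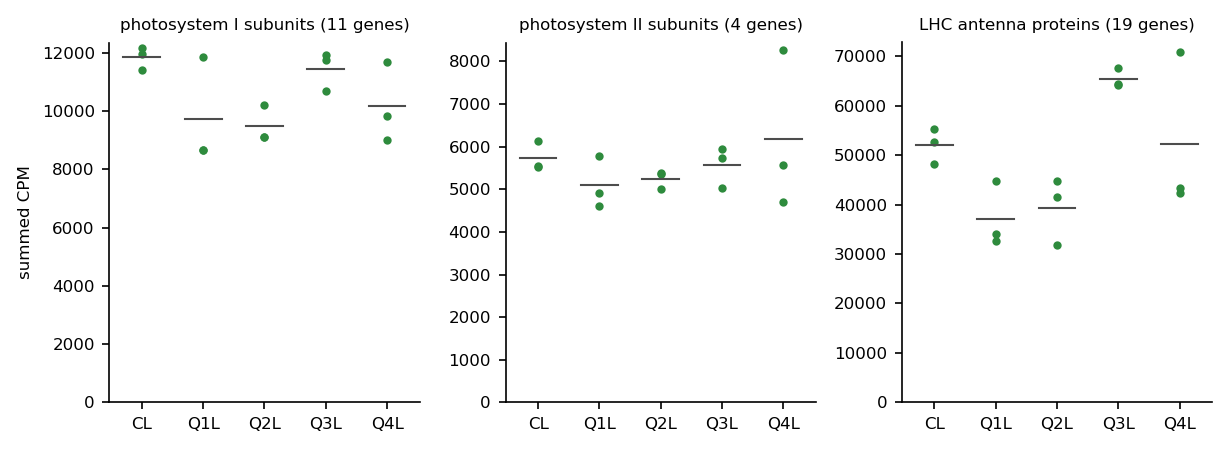
Summed CPM of PSI subunits, PSII subunits and antenna genes in the leaf groups CL and Q1L to Q4L, 1 point per library with a line at the group mean and each axis starting at 0. PSI sums lie between 8654 and 12173 CPM, with those of Q3L overlapping those of Q1L and lying above those of Q2L, whereas the antenna sums of Q3L lie above those of Q1L.

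Roots held in 4 KFTs at Q1 were compared with roots from a Petri plate. None of the 21 genes was called by edgeR, against 0.574% of genes higher and 0.405% lower in KFTs, none by DESeq2, and none had an unadjusted p under 0.05 (5.84% of all genes higher and 3.47% lower). PSAD1 had a lowest, median and highest level of 10.8, 16.9 and 44.3 CPM in the 12 KFT libraries, and 17.2, 22.4 and 13 CPM in the plate libraries. The log2 fold changes ran from -0.25 (PSBR, SE 0.26) to 0.64 (PSAE1, SE 0.78), with a median of 0.06. These values moved with single libraries. Without Q1A replicate 1 the log2 fold change of PSAE1 was -0.14 (SE 0.36), the median -0.11, and 17 of the 21 genes were negative, against 8 of 21 with it. Without Q1P replicate 2 the median was 0.29 with 2 negative, without Q1P replicate 1 it was -0.08 with 13 negative and without Q1P replicate 3 it was -0.11 with 16 negative, and no gene was called in any of these fits. For the well-measured PSAF the 95% interval was -0.35 to 0.49 and for PSA2 -0.32 to 0.27. Differences inside these intervals remain possible. The intervals are not detection limits and hold no spread between plates, since the plate roots came from a single plate. The fit took the 12 KFT libraries as independent, although they come 3 to a tube from 4 KFTs, so it did not separate tubes from plants.

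Among the 4 KFTs no gene at all was called by edgeR (0% of 21794 genes), and DESeq2 called none of the 21 photosystem genes. An unadjusted p under 0.05 was reached by 5 of the 21 genes (PSAN, PSAD2, PSB27, PSBR and HCF136, adjusted p = 0.888 each), against 5.43% of all genes tested. PSAN had 35.9, 22.6 and 19.2 CPM in Q1A, 20.6, 24.7 and 22.6 in Q1B, 20.7, 21.8 and 10.52 in Q1C and 13.9, 11.4 and 14.9 in Q1D. In Q1A replicate 1 the sum of the 21 genes was 494 CPM, against 163 to 273 CPM in the other 11 KFT libraries, beside 995 and 202 to 332 CPM of leaf markers. PSAG had 5.13 CPM and PSAE1 10.4 CPM in that library, and at most 1.24 and 1.67 CPM in the other 11. Without it the unadjusted p was 0.261 for PSAD2, 0.190 for PSBR and 0.0681 for HCF136, against 0.0434 for PSAN and 0.0259 for PSB27. The part of leaf RNA in these root values was not tested. In the plate group, replicate 2 was highest for both sums, with 339 CPM of photosystem genes and 542 CPM of leaf markers.

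**Figure D5:**
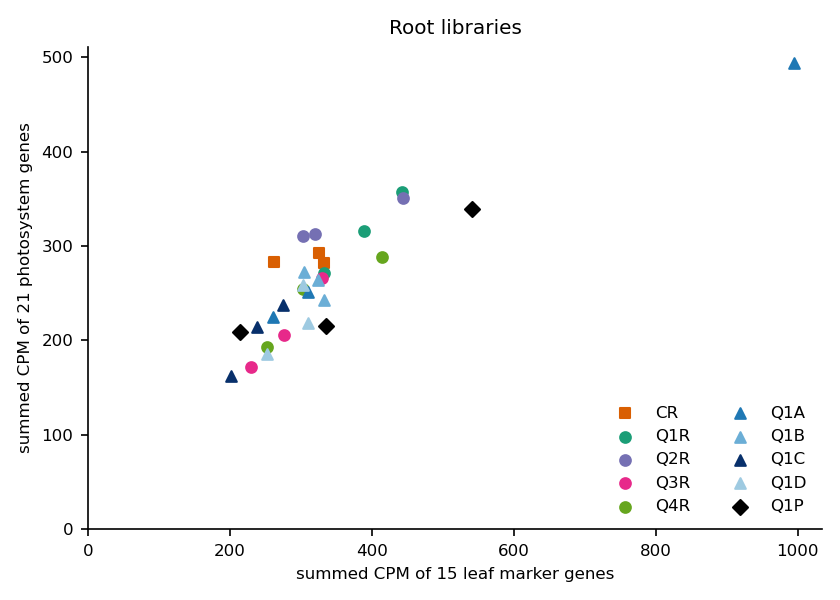
Summed CPM of the 21 photosystem genes against summed CPM of 15 leaf markers in the 30 root libraries, with a symbol for each group. Most libraries lie at 163 to 358 CPM of photosystem genes and 202 to 542 CPM of leaf markers, and Q1A replicate 1 lies apart at 494 and 995 CPM.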

How the data were processed

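Poly(A) RNA-seq libraries of 45 samples were used. The authors trimmed reads with cutadapt, mapped them with STAR to the TAIR10 genome, removed duplicates, and deposited raw counts of uniquely mapped reads per gene from HTSeq, with no normalization. Those tables also hold the authors' fold changes and p-values, which were not used. The kit was directional, and the strand setting of the counting is not given in the sources used here. Identical values in the 24 overlapping tables were used once. CPM was the count over the library total, per 1000000. Comparisons used edgeR 4.0.16 (filterByExpr, TMM, quasi-likelihood F test, Benjamini-Hochberg over all genes tested, call at adjusted p of at most 0.05) in R 4.3.3. DESeq2 1.42.0, other size factors, no filter, a replicate block and leaving out single libraries were alternatives. Leaf levels, paralog ratios and the leaf to root comparison without Q4L replicate 1, and the order of levels in other root sets, were added after the values were seen. RefSeq TAIR10.1 gave exon lengths and promoters. Paralog ratios were tested by permutation in scipy 1.17.1. Named were all genes by role, the highest and lowest by leaf level and difference, and otherwise the genes of smallest p, which were chosen after their values were seen where none was called. Photosystem genes and comparison lists were chosen with earlier results of these data known. The scripts were tested on simulated data. No 2 libraries of a group agreed within sampling noise.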

Additional observations from a re-analysis of the deposited data

How the results depend on the processing

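The 20 calls between leaves and roots kept their direction and significance under every alternative run, and no log2 fold change moved by more than 0.57. Elsewhere edgeR called no photosystem gene, and 10 of 307 recomputed counts moved. With DESeq2, 1 gene was higher in Q2R over Q1R, 5 were lower in Q3R over Q1R, 1 was lower in Q4R over Q1R, 1 was higher in CR over Q3R and 1 had a lower response in leaves. Without the filter on low counts, 4 were lower at Q3 and 1 at Q4 in roots. Leaving out 1 library gave 0 to 2 lower genes in Q3R over Q1R (2 without Q3R replicate 2) and 0 to 1 higher genes in CR over Q3R (1 without CR replicate 1). The cause was not tested. With Q1R as the control of CR, 8 of the 11 PSI subunits turned negative, PSAH2 among them (log2 fold change -0.38). Fold changes of genes with an unadjusted p under 0.05 were recomputed 567 times, of which 548 kept their call and direction and 18 were called only in the alternative. Paralog differences without each time point in turn were 1.07 to 1.41 for PSAD, 2.53 to 2.92 for PSAE and 0.91 to 1.38 for PSAH.

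No source states that a replicate number marks the same plants, although leaf and root libraries of one number may share them. Correlations of the deviations of same-numbered libraries were over 0.1 in 2 of 30 pairs in the root time course and 4 of 30 in the leaf time course. They were over 0.1 in 11 of 30 among KFTs and plate, and 0 of 15 between leaf and root libraries (means 0.004 to 0.062). Differently numbered libraries had lower means in each set, with -0.03 against 0.062 among KFTs and plate and -0.014 against 0.028 between leaf and root libraries. The numbers were not taken as pairs in the main fits. With a replicate block, the 20 leaf calls stayed at 20, and 1 gene, PSAD1, was lower in Q4R over Q1R (log2 fold change -0.92, adjusted p = 0.0424, with 0.445% of all genes lower). The block changed no other count of calls. In roots PSAG rests on levels under 1 CPM in most libraries, where small differences were not detectable at this depth.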

Other observations

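The plastid-encoded photosystem genes, 20 genes that give the cores of both photosystems, had another pattern in roots than the nuclear genes. These libraries were made from poly(A) RNA, which captures plastid transcripts poorly, so the values are given as a description. Their summed level was 891 to 1613 CPM in the 15 leaf libraries and 6.57 to 113 CPM in the 30 root libraries. In roots it was 9.19 to 11.2 CPM in Q1R, 21.4 to 57.6 CPM in Q2R, 9.02 to 42.2 CPM in Q3R and 6.57 to 14.0 CPM in Q4R. The 12 libraries of Q1A to Q1D had 32.9 to 113 CPM, above the Q1R libraries of the same labelled time; that difference was not tested.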
